A study of Mus musculus with 11 samples.

Results

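The enzymes that make, oxidize or divert the sulfur of cysteine were followed as 10 genes, found by their symbols among the 23238 genes of each library: Cth, Cbs, Mpst, Sqrdl, Ethe1, Tst, Suox, Cdo1, Csad and Gnmt. All 10 reached the minimum level for testing, as did 18248 genes in all. The RNA came from cultured mouse cells labelled cavernous endothelial cells, from the erectile tissue of the penis, kept for 5 days in high glucose with Hsp70 (n = 4), in high glucose alone (n = 4) or in normal glucose (n = 3). All groups grew in medium M199 with fetal bovine serum, penicillin/streptomycin and heparin. The labels give no strain, age or genotype of the mice, no glucose concentration, and neither the dose nor the form of Hsp70, a chaperone protein of the heat shock response. They also do not say whether the libraries came from separate cultures or animals, so each p measures the spread between these samples only. File names place the libraries in numbered sets: sets 3, 4 and 5 hold 1 library of each group, and set 2 holds Hsp70 replicate 1 and high glucose replicate 1. Replicates 1 to 4 of Hsp70 and of high glucose thus lie in sets 2 to 5, and replicates 1 to 3 of normal glucose in sets 3 to 5.

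Hydrogen sulfide is a gas that cells make from sulfur amino acids and that relaxes vascular and cavernous smooth muscle. Cbs joins homocysteine and serine to cystathionine, Cth (cystathionine gamma-lyase, named in the title of the series) splits cystathionine to cysteine, and both can release hydrogen sulfide in side reactions, whereas Mpst takes sulfur from 3-mercaptopyruvate. In mitochondria Sqrdl (now Sqor) oxidizes sulfide and passes its electrons to ubiquinone, Ethe1 oxidizes the persulfide that results, Tst moves sulfur between thiosulfate and other acceptors, and Suox turns sulfite into sulfate. Cdo1 and Csad lead cysteine away towards taurine, and Gnmt consumes methyl groups of S-adenosylmethionine, upstream of homocysteine.

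Library totals were 24.8 to 27.8 M normalized counts. The worth of 1 read was estimated from the values near 1, at 0.798 to 1.2 normalized counts. If these values stand for 1 read, the libraries held 22 to 31.5 M reads. Smaller values above 0 also occur, so this is an estimate only. Markers of fibroblasts were abundant in all 11 libraries, with Dcn at 15.2 to 17.6 and Col1a1 at 14 to 14.8 on the scale log2(normalized count + 1), which is used for every level below unless stated. Of 12 endothelial markers Egfl7 (6.69 to 7.95), Cdh5 (5.68 to 9.52), Tek (5.09 to 6.44) and Erg (4.14 to 7.1) were present in every library, whereas Cldn5, Tie1 and Robo4 were listed at 0 in some. Pecam1 (2.68 to 9.07), Kdr (2.42 to 7.46), Emcn (1.94 to 7.18), Vwf (1.15 to 4.49) and Nos3 (0.104 to 5.62) had medians of at most 4.18. The 12 markers summed to 1970 to 2142 normalized counts in the 3 libraries of set 3 but to 327 to 527 in the other 8. The 10 leukocyte markers summed to 4764 to 5637 in set 3 and to 533 to 871 in the others. In bulk RNA fewer cells of a type and less RNA per cell cannot be told apart.

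Per length of exon, Sqrdl led the 10 enzymes and Gnmt was last. Sqrdl had a median of 901 normalized counts per kb over the 11 libraries (681 to 1135), above 92.6% of the tested genes by its mean. Csad followed at 294 (213 to 379), Cdo1 at 217 (162 to 282), Ethe1 at 159 (134 to 212) and Cth at 153 (97.7 to 736). Each of these 4 overlapped in range with the next in order, while Csad lay above the highest value of Ethe1 in every library. The upper end for Cth came from Hsp70 replicate 1 alone. Suox (70.0, from 45.2 to 105) and Mpst (61.7, from 43.9 to 104) lay together below them. Tst had 9.01 normalized counts per kb (2.02 to 28.5), Cbs 2.96 (1.34 to 6.96) and Gnmt 0.96 (0 to 5.14). Among the enzymes that release sulfide Cbs was thus the scarcest.

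**Figure D1:**
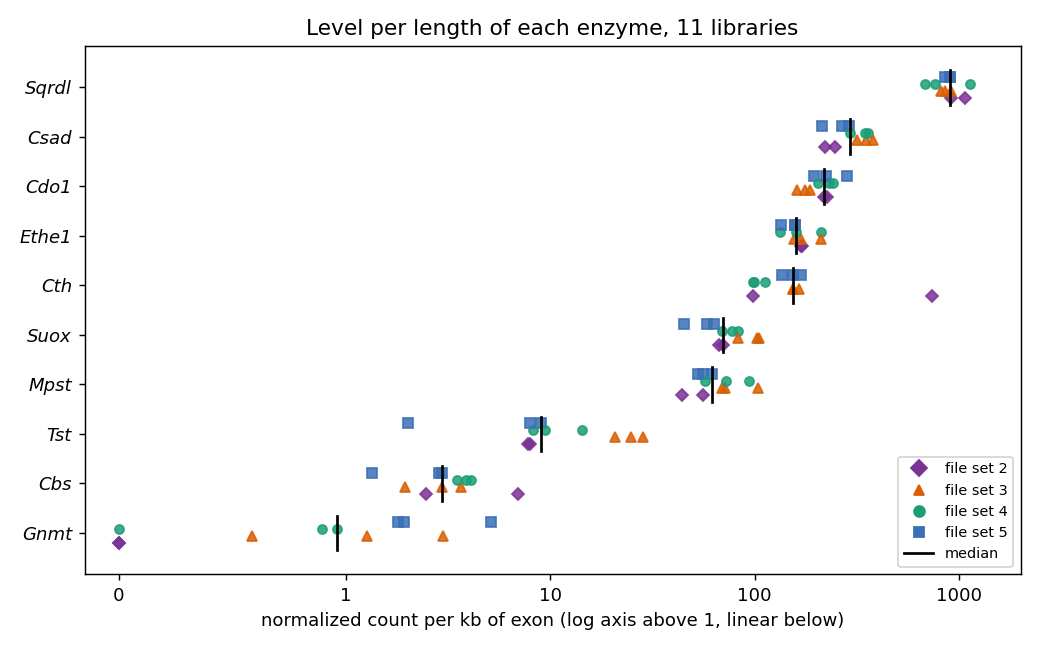
Normalized count per kb of exon of each enzyme in each library, with a symbol per file set and a black bar at the median; the axis is logarithmic above 1 and linear below. Sqrdl lies highest at a median of 901, Cbs and Gnmt lie lowest at 2.96 and 0.96, and 1 library of set 2 carries Cth to 736.

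None of the 10 enzymes differed between any pair of groups by limma with Benjamini-Hochberg adjustment over all 18248 genes. The background was 0% in each comparison, since limma called 0 genes; at an unadjusted p under 0.05 it held 185 genes for high against normal glucose, 136 for Hsp70 in high glucose against high glucose and 178 for Hsp70 in high glucose against normal glucose. No member was among them in any of the 3 comparisons. With the file set as a block, Csad passed that unadjusted level in both comparisons with normal glucose. The share of tested genes that did so was 3.49% for high and 3.22% for Hsp70 against normal glucose. The groups overlapped for all 10 members in each comparison, where 1.06% of tested genes lay wholly higher and 1.32% wholly lower in high than in normal glucose. The same shares were 0.285% and 0.323% for Hsp70 against high glucose, and 0.482% and 1.24% for Hsp70 against normal glucose. Median differences over the 10 were 0.06, 0.03 and 0.13 in the 3 comparisons, beside -0.00855, 0.00286 and -0.00403 over all genes tested. Each pair of comparisons shares a group: both comparisons with normal glucose use its libraries, both with Hsp70 use the Hsp70 libraries, and the remaining pair uses the high glucose libraries.

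**Figure D2:**
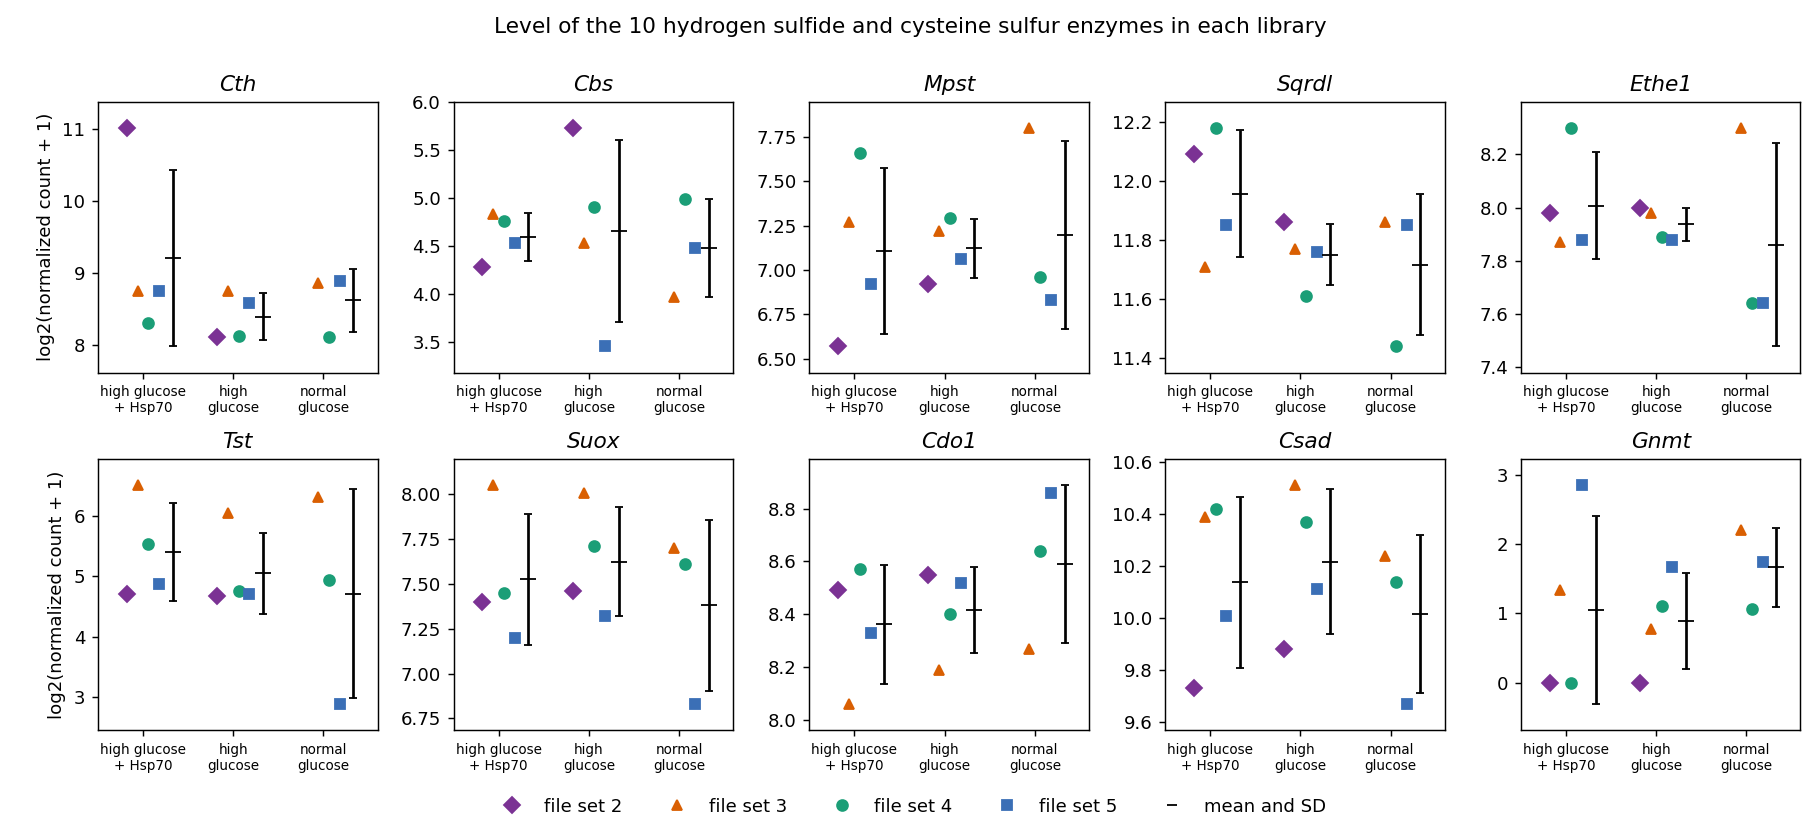
Level of each enzyme as log2(normalized count + 1) in every library, by group, with a symbol per file set and the group mean with its SD beside the points. Cth stands at 11.01 in Hsp70 replicate 1 and at 8.10 to 8.88 in the other 10 libraries, and Tst is highest in the 3 libraries of set 3.

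Read within file sets, a few members kept 1 direction. Suox and Csad were higher in high than in normal glucose in sets 3, 4 and 5, which is 2 of 10 members beside 11.3% of all tested genes. Cdo1 was lower in all 3 sets, 1 of 10 beside 14.3%. With Hsp70 against high glucose alone, Tst was higher in all 4 sets, beside 3.89% of tested genes, and no member was lower in all 4, beside 4.42%. Against normal glucose, Hsp70 libraries were higher for Tst and Csad in every shared set (7.62% of tested genes) and lower for Cdo1 (9.92%). With 10 members these counts of 0 to 2 stay near the background.

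**Figure D3:**
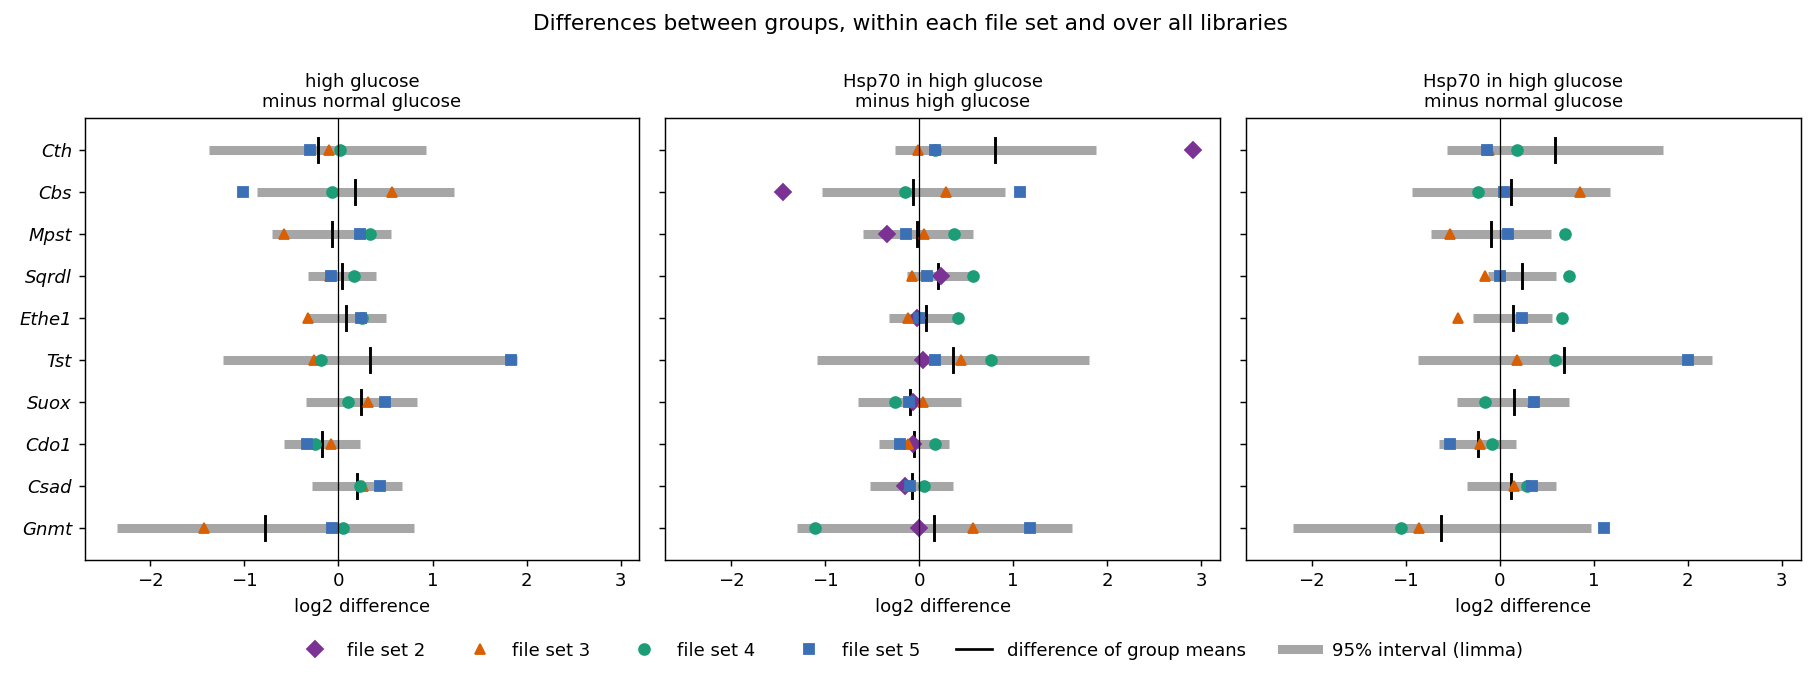
Log2 difference of each enzyme for the 3 comparisons: symbols are single file sets, the black tick is the difference of the group means and the grey bar its 95% interval by limma. Every grey bar covers 0, and the widest departure is Cth in set 2, at 2.91 for Hsp70 minus high glucose.

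Among the enzymes that make hydrogen sulfide, Cth was set apart by a single library. Its level was 11.01, 8.74, 8.30 and 8.75 in Hsp70 replicates 1 to 4, 8.10, 8.75, 8.12 and 8.58 in high glucose replicates 1 to 4, and 8.85, 8.11 and 8.88 in normal glucose replicates 1 to 3. Hsp70 replicate 1 held 2055 normalized counts, 7.53 times the 272.8 of high glucose replicate 1 in the same set, whereas the other 10 libraries held 272.8 to 469. In the other libraries Cth was 8.11 to 8.30 in set 4, 8.74 to 8.85 in set 3 and 8.58 to 8.88 in set 5. Without Hsp70 replicate 1 limma did not call Cth different among the sets (adjusted p = 0.0643).

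For Hsp70 against high glucose the mean difference of Cth was 0.81 (95% interval -0.26 to 1.88, limma; 9.20 ± 1.22 against 8.39 ± 0.328, SD, n = 4 each). Within sets 2 to 5 it was 2.91, -0.01, 0.17 and 0.17. A two-sided exact permutation test over libraries gave p = 0.2, and moving the labels within file sets only gave p = 0.25, where 16 arrangements allow no p below 0.125. Without Hsp70 replicate 1 the difference was 0.21 (-0.33 to 0.75), and with the file set as a block as well, an alternative added after the data were seen, it was 0.11 (-0.19 to 0.42). Both fits leave out the library with the highest Cth, so their intervals describe the other libraries only. High glucose against normal glucose gave -0.22 (-1.38 to 0.93; -0.10, 0.02 and -0.30 in sets 3 to 5), -0.48 (-1.58 to 0.62) with the block over all libraries, and -0.13 (-0.43 to 0.18) in the fit with the block and without Hsp70 replicate 1. Hsp70 in high glucose against normal glucose gave 0.59 (-0.56 to 1.74) over all libraries but -0.02 (-0.32 to 0.29) in that fit.

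In mouse cells Cth is a known target of ATF4, the transcription factor that switches on amino acid synthesis and transport under stress. The median of 26 ATF4 targets was 10.93 in Hsp70 replicate 1 and 8.41 to 9.28 in the other 10 libraries. Within set 2, 25 of the 26 lay higher in the Hsp70 library than in the high glucose one, at a median of 1.39 beside 0 over all genes tested. The medians of Hsp70 minus high glucose were -0.0761, 0.299 and -0.202 in sets 3, 4 and 5, beside Cth differences of -0.01, 0.17 and 0.17. None of the 26 was called in a comparison of groups by limma. Set 2 holds 1 library of each arm, so its contrast has no replicate. The list was chosen with earlier results of these data known, and a part of ATF4 in the level of Cth was not tested.

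**Figure D4:**
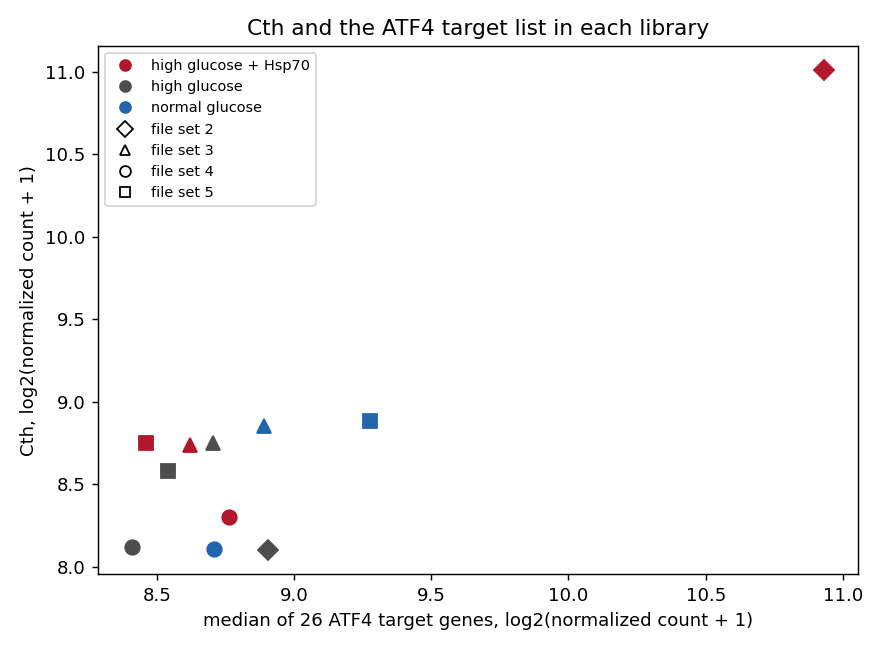
Cth against the median of 26 ATF4 target genes in each library, both as log2(normalized count + 1), with colour for the group and shape for the file set. Hsp70 replicate 1 lies alone at 10.93 and 11.01, and the other 10 libraries lie between 8.41 and 9.28 on the ATF4 axis and between 8.10 and 8.88 for Cth.

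The genes whose pattern was most like that of Cth were ranked by Pearson's r over the 11 libraries, among 8841 genes of at least median level, as a description. The first 8 were Slc1a4, a transporter of neutral amino acids (r = 0.948), the alanine transaminase Gpt2 (0.932), the asparagine synthetase Asns (0.911), Leo1 of the PAF1 transcription complex (0.908), Aldh18a1 of proline synthesis (0.907), the threonyl-tRNA synthetase Tars (0.889), Rsl24d1 (0.889) and the RNA-binding protein Elavl1 (0.888). Gpt2 and Asns are on the ATF4 list. The likeness leaned on Hsp70 replicate 1, since without it the 8 values of r lay between 0.103 for Tars and 0.674 for Slc1a4. Asns itself read 12.3, 9.75, 9.92 and 9.43 in Hsp70 replicates 1 to 4, 9.97, 9.87, 9.03 and 9.58 in high glucose, and 9.98, 9.01 and 10.6 in normal glucose. Like Cth it was highest in Hsp70 replicate 1, with normal glucose replicate 3 next.

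Because ATF4 targets and Cth were high in the same library, promoter windows of RefSeq (GRCm38.p6, 300 bases around a start site) were searched on both strands for the letters TGATGNAA, the core of sites bound by ATF4 with C/EBP proteins. Windows matched 7 of the 10 members, and promoters of Cth, Tst and Cdo1 were not searched here. The letters stood in 3.97% of all 32851 windows, in 3 of the 8 genes most like Cth (Asns, Slc1a4 and Tars) and in 1 of 7 members, Sqrdl. The 8 genes were picked by their levels in these same libraries, so their count is a description only. The share is per window, and the 7 members have 11 windows. Asns, at chr6:7693160-7693459 on the minus strand, is shown as a gene of that group that is also on the ATF4 list, and Sqrdl, at chr2:122771463-122771762 on the plus strand, as the only match among the 7 members searched. Each is written 5′ to 3′ along the gene with the match in capitals; for Sqrdl it is the reverse strand of the letters. The Sqrdl window belongs to the RefSeq start site, which lies inside the gene as GENCODE M21 draws it.
Asns: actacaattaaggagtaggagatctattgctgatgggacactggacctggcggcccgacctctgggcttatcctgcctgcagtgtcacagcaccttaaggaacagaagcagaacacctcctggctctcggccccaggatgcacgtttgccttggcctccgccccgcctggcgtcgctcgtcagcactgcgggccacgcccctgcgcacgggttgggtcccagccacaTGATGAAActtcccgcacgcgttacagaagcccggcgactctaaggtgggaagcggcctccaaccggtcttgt
Sqrdl: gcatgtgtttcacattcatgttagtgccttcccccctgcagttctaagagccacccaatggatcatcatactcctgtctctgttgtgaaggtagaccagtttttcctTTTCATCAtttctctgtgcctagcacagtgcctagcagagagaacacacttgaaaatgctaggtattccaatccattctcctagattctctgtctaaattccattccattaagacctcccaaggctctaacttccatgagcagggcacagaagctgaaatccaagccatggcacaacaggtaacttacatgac

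Cbs, the other enzyme of the cystathionine route, was scarce and uneven. It read 4.28, 4.83, 4.76 and 4.53 with Hsp70, 5.73, 4.53, 4.91 and 3.46 in high glucose, and 3.97, 4.99 and 4.48 in normal glucose, at most 52.1 normalized counts. High glucose alone held both the highest and the lowest library, in sets 2 and 5. The difference was -0.06 (95% interval -1.03 to 0.91, limma) for Hsp70 against high glucose, 0.18 (-0.87 to 1.23) for high against normal glucose, and 0.12 (-0.93 to 1.17) for Hsp70 against normal glucose. In set 2, where Cth was 2.91 higher with Hsp70, Cbs was 1.45 lower (-1.45). Its window was the only one of the 7 members with an E-box, the letters CACGTG, which 7.15% of all windows hold. It lies at chr17:31637156-31637455 on the minus strand, with the E-box in capitals, and is shown because elements that respond to carbohydrate contain E-boxes and glucose is varied here.
Cbs: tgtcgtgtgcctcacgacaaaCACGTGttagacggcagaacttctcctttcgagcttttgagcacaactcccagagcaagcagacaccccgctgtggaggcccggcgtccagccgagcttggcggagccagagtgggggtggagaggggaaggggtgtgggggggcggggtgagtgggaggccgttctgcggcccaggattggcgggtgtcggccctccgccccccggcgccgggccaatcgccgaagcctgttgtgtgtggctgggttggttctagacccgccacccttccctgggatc

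Mpst read 6.57, 7.27, 7.66 and 6.92 with Hsp70, 6.92, 7.22, 7.29 and 7.06 in high glucose, and 7.80, 6.96 and 6.83 in normal glucose. Its highest values fell in different groups, normal glucose replicate 1 of set 3 and Hsp70 replicate 3 of set 4. The differences were -0.02 (95% interval -0.60 to 0.57, limma) for Hsp70 against high glucose, -0.07 (-0.71 to 0.56) for high against normal glucose, and -0.09 (-0.73 to 0.55) for Hsp70 against normal glucose. On chromosome 15 Mpst (78406416 to 78414013, plus strand, mm10) and its relative Tst (78399556 to 78405907, minus strand) lie head to head with 508 bases between them. Among 3 start sites of Mpst, 1 window held TGACNNNGC, the core of the antioxidant response element bound by NRF2, which 12.4% of all windows hold. It is shown with the match in capitals, at chr15:78406551-78406850 on the plus strand because the other 6 members searched had none; its start site lies inside the gene as GENCODE M21 draws it.
Mpst: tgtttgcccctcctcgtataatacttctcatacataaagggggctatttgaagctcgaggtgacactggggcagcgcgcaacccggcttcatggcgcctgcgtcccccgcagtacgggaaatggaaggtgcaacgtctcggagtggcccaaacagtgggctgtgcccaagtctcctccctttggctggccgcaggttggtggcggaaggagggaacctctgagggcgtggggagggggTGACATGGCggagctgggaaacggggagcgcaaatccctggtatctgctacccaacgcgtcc

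The first steps of sulfide oxidation in mitochondria were the steadiest. Sqrdl read 12.09, 11.71, 12.18 and 11.85 with Hsp70, 11.86, 11.77, 11.61 and 11.76 in high glucose, and 11.86, 11.44 and 11.85 in normal glucose, a span of 0.738 over all 11. Hsp70 replicates 1 and 3 held the 2 highest values. The difference for Hsp70 against high glucose was 0.20 (95% interval -0.13 to 0.54, limma; 0.23, -0.07, 0.57 and 0.08 in sets 2 to 5), and for Hsp70 against normal glucose 0.24 (-0.12 to 0.60). High against normal glucose gave 0.04 (-0.32 to 0.40).

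Ethe1, next in the pathway, spanned 0.661. It read 7.98, 7.87, 8.30 and 7.88 with Hsp70, 7.995, 7.98, 7.89 and 7.88 in high glucose, and 8.30, 7.64 and 7.64 in normal glucose. The high glucose libraries lay close together, and the normal glucose libraries held the extremes. Its differences were 0.07 (95% interval -0.32 to 0.46, limma), 0.08 (-0.35 to 0.50) and 0.14 (-0.28 to 0.56) for Hsp70 against high glucose, high against normal glucose and Hsp70 against normal glucose. Hsp70 replicate 3 was at or next to the top for Sqrdl (12.18), Ethe1 (8.30) and Mpst (7.66) alike, and within set 4 it lay 0.57, 0.41 and 0.37 above high glucose and 0.74, 0.66 and 0.70 above normal glucose. After the set means were taken out, the correlation over the 11 libraries was 0.901 for Mpst with Ethe1 and 0.798 for Sqrdl with Ethe1, as a description; libraries of a set share that mean. Ethe1 shares 99 exonic bases, 6.67% of its exonic length, with Zfp575 on the opposite strand (how strand was treated in counting is unknown).

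Tst, the rhodanese, varied most of the 10, with an SD of 1.01 over all libraries, beside 0.811 for Cth and 0.203 for Sqrdl. It read 4.71, 6.51, 5.53 and 4.88 with Hsp70, 4.67, 6.06, 4.76 and 4.71 in high glucose, and 6.32, 4.94 and 2.88 in normal glucose. The library of set 3 was the highest of each group, and normal glucose replicate 3 was the lowest of all, at 6.38 normalized counts. Tst was higher with Hsp70 than in high glucose alone by 0.04, 0.45, 0.77 and 0.17 in sets 2 to 5, with a difference of means of 0.36 (95% interval -1.09 to 1.81, limma) and of 0.36 (-0.45 to 1.17) with the set as a block. Against normal glucose Hsp70 gave 0.69 (-0.87 to 2.26), with 0.19, 0.59 and 2.00 in sets 3 to 5. With the block that difference was 0.87 (-0.04 to 1.78), and without normal glucose replicate 3 the unblocked one was -0.22. High against normal glucose gave 0.33 (-1.23 to 1.90), 0.51 (-0.39 to 1.42) with the block, and -0.58 without that library. Both fits without it had no block and set normal glucose of sets 3 and 4 against sets 2 to 5. Within sets 3 and 4 Hsp70 minus normal glucose was 0.19 and 0.59, and high minus normal glucose was -0.26 and -0.19.

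Suox, which makes sulfate, read 7.40, 8.05, 7.45 and 7.20 with Hsp70, 7.46, 8.01, 7.71 and 7.32 in high glucose, and 7.70, 7.61 and 6.83 in normal glucose. Again the library of set 3 was the highest of each group. The difference of high from normal glucose was 0.24 (95% interval -0.35 to 0.84, limma), with 0.31, 0.10 and 0.49 in sets 3 to 5. Without normal glucose replicate 3 it was -0.03. That fit had no block, and its normal glucose arm lacked sets 2 and 5, which high glucose kept. In the sets where both arms remained, high minus normal glucose was 0.31 and 0.10. Hsp70 gave -0.10 (-0.65 to 0.45) against high glucose and 0.15 (-0.45 to 0.74) against normal glucose.

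Of the enzymes that divert cysteine, Cdo1 was lowest in set 3, where Csad had its highest mean. Cdo1, which oxidizes cysteine to its sulfinate, read 8.49, 8.06, 8.57 and 8.33 with Hsp70, 8.55, 8.19, 8.40 and 8.52 in high glucose, and 8.27, 8.64 and 8.86 in normal glucose. The library of set 3 was the lowest of each group. High minus normal glucose was -0.18 (95% interval -0.58 to 0.23, limma; -0.08, -0.25 and -0.34 in sets 3 to 5), Hsp70 minus normal glucose -0.23 (-0.64 to 0.17; -0.21, -0.08 and -0.53), and Hsp70 minus high glucose -0.05 (-0.43 to 0.32). Without normal glucose replicate 3, the highest library, the differences from normal glucose were -0.04 for high glucose and -0.10 for Hsp70. That fit had no block, and its normal glucose arm lacked sets 2 and 5, which the other arms kept. In the sets where all arms remained, high minus normal glucose was -0.08 and -0.25. Hsp70 minus normal glucose was -0.21 and -0.08 there.

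Csad, which decarboxylates that sulfinate on the way to taurine, read 9.73, 10.39, 10.42 and 10.01 with Hsp70, 9.88, 10.51, 10.37 and 10.11 in high glucose, and 10.24, 10.14 and 9.67 in normal glucose. The lowest library of each group was that of set 2 or, in normal glucose, of set 5. High minus normal glucose was 0.20 (95% interval -0.28 to 0.68, limma) over all libraries and 0.32 (0.08 to 0.57) with the set as a block, where 3.49% of tested genes had an unadjusted p under 0.05; the adjusted p was 1 in both fits. Hsp70 minus normal glucose was 0.12 (-0.35 to 0.60) and with the block 0.25 (0.00 to 0.49), again at an adjusted p of 1 by limma. Without normal glucose replicate 3, the lowest library, the unblocked differences were 0.03 for high and -0.05 for Hsp70 against normal glucose. In that fit the normal glucose arm lacked sets 2 and 5, which the other arms kept. In set 3 Csad exceeded normal glucose by 0.26 in high glucose alone and by 0.15 with Hsp70. In set 4 the excess was 0.23 and 0.29. Hsp70 minus high glucose was -0.08 (-0.52 to 0.36). Csad shares 278 exonic bases, 7.26% of its exonic length, with Zfp740 on the opposite strand.

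Gnmt, the glycine methyltransferase that is abundant in liver, was close to the limit of detection. It read 0.00, 1.34, 0.00 and 2.85 with Hsp70, 0.00, 0.77, 1.11 and 1.67 in high glucose, and 2.20, 1.06 and 1.74 in normal glucose, at most 6.20 normalized counts. In the 3 libraries at or near 0 a count of 0 allows up to 2.89 to 3.01 normalized counts. That is 3 reads at the estimated worth of 1 read, with counting error only. No order of groups can therefore be read from Gnmt. The difference was -0.78 (95% interval -2.36 to 0.80, limma) for high against normal glucose and 0.16 (-1.30 to 1.63) for Hsp70 against high glucose.

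Between the file sets, with the groups in the model, limma called 3 of the 10 enzymes different, beside 11.9% of all tested genes (F test, adjusted over all genes). They were Csad (adjusted p = 0.0191), Tst (0.034) and Suox (0.0414). Set means in sets 2 to 5 were 9.81, 10.38, 10.31 and 9.93 for Csad, 4.69, 6.30, 5.08 and 4.16 for Tst, and 7.43, 7.92, 7.59 and 7.12 for Suox. All 3 were highest in set 3 and fell in the order set 3, set 4 and then sets 2 and 5. What a set stands for is not stated, and the deposited values differ in kind between sets: undetected genes are at 0 in sets 2 and 3 and often at small values above 0 in sets 4 and 5. Leaving out single libraries kept the call of Csad in 5 of 11 cases, of Tst in 5 and of Suox in 2 (range of adjusted p over 18 alternatives 0.0066 to 0.0996, 0.0162 to 0.131 and 0.011 to 0.174), while the count over all genes ran from 613 to 5195. Cdo1 had an adjusted p of 0.158, with its lowest mean (8.17) in set 3, and the smallest spans of set means were those of Sqrdl (0.23) and Ethe1 (0.25).

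**Figure D5:**
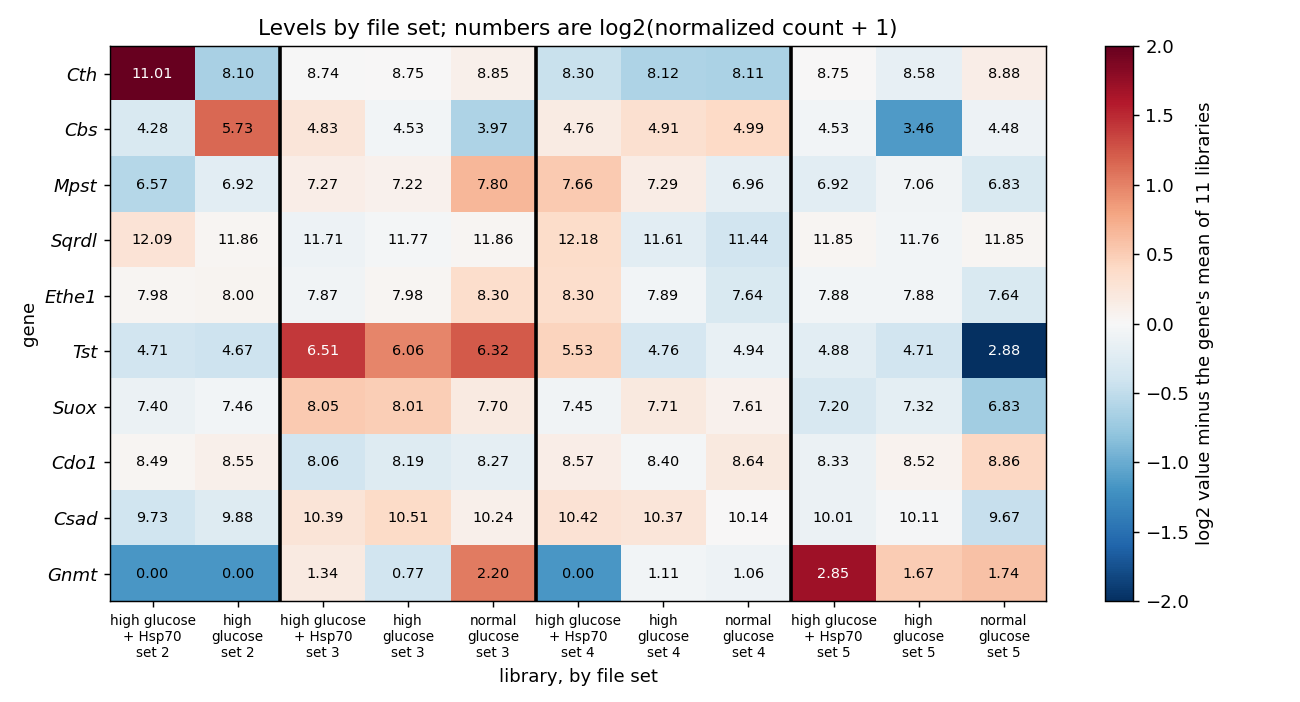
Levels of the 10 enzymes in each library, ordered by file set and within a set by group; the number is log2(normalized count + 1) and the colour its distance from the mean of that gene over 11 libraries. Tst, Suox and Csad are high across set 3, where Cdo1 is low, and the cell of Cth in Hsp70 replicate 1 (11.01) stands out from its row.

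Markers of several cell types moved with these sets. Beside the endothelial and leukocyte sums given above, 8 adipocyte markers summed to 15529 to 24743 normalized counts in set 3 and to 6393 to 11790 elsewhere, and 10 smooth muscle and pericyte markers to 7486 to 8876 and 4696 to 6682. The 10 fibroblast markers summed to 338323 to 414266 in set 3 and to 164956 to 268205 elsewhere. The 8 Schwann cell markers summed to 1658 to 5202 in set 3 and to 653 to 2341 in the other sets. The 6 hepatocyte markers, of interest because several of these enzymes are abundant in liver, summed to 1166 to 1424 and 506 to 1273, with Serpina1a at 8.96 to 10.3, Alb at 2.64 to 9.06, Fgb at 0 to 3.26, and Apoa1, Ttr and Tat at or below 1.06 in all libraries. By limma's F test the sets differed for 9 of 12 endothelial, 8 of 10 leukocyte, 7 of 10 smooth muscle and pericyte, 6 of 10 fibroblast, 5 of 8 Schwann cell, 5 of 7 adipocyte and 1 of 3 tested hepatocyte markers. The part of these markers, or of the difference in deposited values, in the levels of Tst, Suox and Csad was not tested.

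The rest of cysteine metabolism gave no call in any comparison of groups. Of 13 genes of cysteine supply and glutathione, limma called 0 higher and 0 lower each time, with medians of 0.01 for Hsp70 against high glucose, -0.01 for high against normal glucose and -0.06 for Hsp70 against normal glucose. Within set 2 their median was 0.282, with 8 of 13 higher in the Hsp70 library, among them the amino acid transporter Slc1a4 at 9.97 against 8.83. The 25 other enzymes of cysteine sulfur, such as transaminases, molybdenum cofactor genes and taurine transport, had medians of 0.04, -0.04 and 0.01 in the same order, again with 0 called. The 26 ATF4 targets had medians of 0.40, -0.13 and 0.20, and 23, 5 and 18 of them lay above 0. With the file set as a block the medians were 0.40, -0.40 and -0.05, so the direction against normal glucose turned for Hsp70. Set 2 has no normal glucose library, so Hsp70 replicate 1 also enters the block value for high against normal glucose. Within sets 3, 4 and 5 that median was -0.1, -0.0859 and -0.417. Slc7a3, a transporter of cationic amino acids, had a difference of -1.76 for high against normal glucose (SE 0.767, adjusted p = 1, limma). Its levels were low, at 0.97, 0.0, 2.73 and 3.56 in high glucose and 2.82, 4.38 and 3.51 in normal glucose. Fgf21, a hormone induced by ATF4, read 2.78, 1.76, 3.17 and 0.03 with Hsp70 and at most 0.06 in high glucose; the difference of 1.91 (adjusted p = 1, limma) rests on few reads. By the same F test the sets differed for 3 of the 13, 4 of the 25 and 7 of the 26.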

How the data were processed

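Total RNA was extracted with Trizol and made into libraries with the Clontech SMARTer Stranded kit, per the labels' protocols. The deposited files give 1 log2 value per gene, read from the values as log2(normalized count + 1). TopHat, edgeR and mm10 are named without versions, per the submitters' processing notes; how reads were counted and normalized, and with which annotation, is not given in the sources.

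Of 23282 rows per file, 44 repeated a symbol and were dropped, keeping the copy with the highest mean. A gene was tested where 3 or more libraries had a normalized count of 1 or more. The model (limma 3.58.1, R 4.3.3) had a mean per group, a trended prior and robust variances, with Benjamini-Hochberg adjustment at 0.05, and was tested on simulated data. Differences among file sets used an F test with the groups as covariate. Cth was also compared by exact permutation. Lengths (union of exons) and positions came from GENCODE M21 (mm10), where Sqrdl is named Sqor. Genes were named by rule: the 10 members, some of the up to 3 genes per pathway list and comparison with the smallest unadjusted p, and the 8 genes most correlated with Cth. The members and lists were chosen with earlier results of these data known. Figures used matplotlib 3.10.9 in Python 3.11.15.

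Alternatives were a block by file set or title number, subsets of sets, other filters, pseudocounts, scalings and variance models, library weights, and leaving out each library. Taking out group means, libraries that share a file set correlated at 0.594, 0.302 and 0.285 for high and normal glucose (sets 3 to 5), at 0.422, 0.691, 0.0586 and 0.262 for Hsp70 and high glucose (sets 2 to 5), and at 0.458, 0.0219 and 0.372 between Hsp70 and normal glucose. In each comparison the value was highest in set 3, and for the Hsp70 comparisons set 4 does not reach 0.1. A pair from different sets, high glucose of set 4 with normal glucose of set 5, reached 0.137. A positive value therefore does not by itself show that a set pairs its libraries.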

Additional observations from a re-analysis of the deposited data

Results flagged for a closer look

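Outlying libraries were looked for in the 2 groups of 4, which gave 20 tests over the 10 enzymes, and chance alone marks about 1 in 20. Cth in Hsp70 replicate 1, at 11.01 where the other 3 Hsp70 libraries read 8.30 to 8.75, lay apart from its group by Dixon's ratio. So did Tst in high glucose replicate 2, the library of set 3, at 6.06 where the other 3 high glucose libraries read 4.67 to 4.76.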

How the results depend on the processing

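Of the 30 differences between groups, taken under each alternative (637 values), 0 passed (smallest adjusted p = 0.967, limma). After rounding, 74 turned their sign. The other 563 kept it or rounded to 0, such as Cbs at -0.00 for Hsp70 against normal glucose with the file set as a block. With the file set as a replicate block the values that turned were 0.05 (Mpst) and -0.01 (Sqrdl) for high against normal glucose and 0.03 (Mpst) for Hsp70 against normal glucose; the block changed no call, and limma called 0 genes with it in each comparison, with 636, 305 and 587 at an unadjusted p under 0.05 in place of 185, 136 and 178. The title number as a replicate block turned no sign and gave 0 calls; by that number the deviations correlated at -0.224, -0.357 and 0.137 for high and normal glucose.

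For high against normal glucose the other values that turned were Cbs at -0.18 in sets 3, 4 and 5 only (also with the block and Hsp70 replicate 1 left out), -0.03 without set 3, -0.55 in sets 4 and 5 and -0.29 with library weights; Mpst at 0.19 without set 3, 0.28 in sets 4 and 5 and 0.10 with weights; Cth at 0.06 with weights; and, in sets 2 and 3 only, Sqrdl -0.05, Ethe1 -0.31, Tst -0.95, Cdo1 0.10 and Csad -0.05. For Hsp70 against high glucose they were Cbs at 0.40 in sets 3, 4 and 5 (also with the block and Hsp70 replicate 1 left out), 0.46 in sets 4 and 5 and 0.10 with weights; Mpst at 0.09 in sets 3, 4 and 5 (also with the block and Hsp70 replicate 1 left out), 0.12 in sets 4 and 5 and 0.01 with quantile normalization; and Ethe1 at -0.07 in sets 2 and 3. For Hsp70 against normal glucose they were Cth at -0.02 in sets 3, 4 and 5, in the block fit without Hsp70 replicate 1, and when the permutation moved labels within file sets only; Mpst at 0.09 (the same 2 fits), 0.16 without set 3, 0.40 in sets 4 and 5 and 0.03 with weights; Cbs at -0.21, -0.09 and -0.19 in those 3 settings; Gnmt at 0.03 in sets 4 and 5 and 0.01 with weights; and, in sets 2 and 3, Ethe1 -0.38, Tst -0.71, Cdo1 0.01 and Csad -0.18.

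Leaving out single libraries turned some signs. These fits had no block, so leaving out a library also changed which sets a group held. For Hsp70 against high glucose the values then ran from -0.46 to 0.30 (Cbs), -0.20 to 0.16 (Mpst), -0.03 to 0.12 (Ethe1), -0.01 to 0.69 (Tst), -0.27 to 0.03 (Suox), -0.13 to 0.05 (Cdo1), -0.19 to 0.06 (Csad) and -0.44 to 0.51 (Gnmt). For Hsp70 against normal glucose they ran from -0.02 to 0.89 (Cth, also in the permutation test), -0.14 to 0.37 (Cbs), -0.27 to 0.21 (Mpst), -0.22 to 1.49 (Tst), -0.13 to 0.30 (Suox) and -0.05 to 0.26 (Csad). For high against normal glucose they ran from -0.18 to 0.58 (Cbs), -0.26 to 0.23 (Mpst), -0.10 to 0.11 (Sqrdl), -0.04 to 0.29 (Ethe1), -0.58 to 1.14 (Tst) and -0.03 to 0.40 (Suox). Without Hsp70 replicate 2 limma called 3 genes, none of them a member, in place of 0 in both comparisons with Hsp70.

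Among file sets limma called 1375 genes with no filter and 1396 with no trend and no robust estimates, in place of 2165, and 613 to 5195 when single libraries were left out. Csad lost its call with no trend and no robust estimates and without Hsp70 replicates 1, 2 or 4, high glucose replicates 1 or 2, or normal glucose replicate 3. Tst lost it in the first 6 of these settings, with no filter, with quantile normalization and without normal glucose replicate 1. Suox kept it without Hsp70 replicate 3 or normal glucose replicate 2, at the filter of 10, with the pseudocount of 5 and with no group term. Cth was called (adjusted p = 0.00171) without high glucose replicate 1, where set 2 is Hsp70 replicate 1 alone. The causes were not tested. Depth limits Gnmt and, at no more than 52.1 normalized counts, Cbs. The fit with the block and without Hsp70 replicate 1 was added after the data were seen.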
